A study of Homo sapiens with 6 samples.

Results

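The ligand, receptor, target and feedback genes of bone morphogenetic protein (BMP) signalling were followed in C4-2 cells with and without a knockout of CDK12. The 10 members were the ligand genes BMP7 and BMP4, the receptor genes BMPR1A and BMPR2, the target genes ID1, ID2 and ID3, and the feedback inhibitor genes SMAD6, SMAD7 and BAMBI. All 10 symbols were found among the 62696 gene rows of the files, each under 1 Ensembl identifier. The 10 genes were picked with their counts in these libraries already known, by the contrast between knockout and vector libraries, so their values are given as a description and carry no test. C4-2, a human line of castration-resistant prostate cancer, was grown here in RPMI1640 with 10% fetal bovine serum and given no treatment. In 3 libraries CDK12 had been knocked out with CRISPR-Cas9 (the knockout libraries, CDK12KO in the plots), and 3 libraries came from vector cells of genotype wild type (the vector libraries, VEC in the plots). CDK12 is a kinase of RNA polymerase II, and the study asked what its loss does to such cells.

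The labels do not say whether replicates were separate cultures or whether the knockout line was 1 clone, so the spread between libraries may be technical. Effects of CDK12 loss and other differences between the 2 lines cannot be told apart. The libraries held 24660798 to 30732841 reads. CDK12 RNA, at 60.8, 56.9 and 56.5 CPM (counts scaled to library size) in the knockout libraries and 60.2, 48.0 and 57.1 CPM in the vector libraries, was not lower in the knockout libraries (log2 fold change 0.08 ± 0.13 SE, edgeR adjusted p = 0.709). Whole-gene counts do not tell whether a protein can still be made from this RNA. All 10 prostate luminal markers reached 1 CPM, with summed levels of 7706 to 10703 CPM in the knockout libraries and 9030 to 9124 CPM in the vector libraries. Basal markers, of which 1 of 4 reached 1 CPM, summed to 0.283 to 1.76 CPM in the knockout libraries and 0.560 to 0.824 CPM in the vector libraries. Leukocyte markers, of which 1 of 5 did, summed to 0 to 0.0517 CPM in the knockout libraries and 0.0560 to 2.41 CPM in the vector libraries. Neuroendocrine markers, of which 2 of 4 did, summed to 3.10 to 6.67 CPM in the knockout libraries and 2.25 to 11.6 CPM in the vector libraries, where vector library 1 held 7.32 CPM of CHGA, a gene with 0 reads in all knockout libraries. Fibroblast markers, of which 4 of 6 reached 1 CPM, summed to 25.5 to 32.4 CPM in the knockout libraries and 22.7 to 24.6 CPM in the vector libraries. Endothelial markers, of which 1 of 4 did, summed to 6.61 to 10.6 CPM in the knockout libraries and 4.62 to 5.12 CPM in the vector libraries. Both sums were higher in all knockout libraries, led by COL1A1 (21.1 to 28.4 CPM in knockout libraries and 19.5 to 21.1 CPM in vector libraries) and VWF (6.61 to 10.3 CPM in knockout libraries and 4.20 to 5.12 CPM in vector libraries). The fibroblast markers did not move together. COL3A1 was also higher (1.76 to 2.55 CPM in knockout libraries and 0.870 to 1.37 CPM in vector libraries). COL1A2 had 0 CPM in all knockout libraries and 0.549 to 1.13 CPM in vector libraries, and LUM 0 CPM against 0 to 0.154 CPM. TP63, DCN, PECAM1 and CD3E had 0 reads in every library. The part of other cell types in the results was not tested. Knockout library 2 stood apart. Across genes its log2 CPM correlated with the other libraries at r = 0.916 to 0.950, while the other 5 correlated with each other at 0.977 to 0.990. The scaling factor (TMM) of knockout library 2 was 0.737, against 1.04 to 1.10 in the other 5, and all its CPM depend on it. Knockout library 2 also had the most ambiguous reads (14.4%) and the fewest genes with a count (23458). The fits are therefore given with all 6 libraries and again without it. In bulk RNA, fewer cells that express a gene and less RNA per cell cannot be told apart.

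BMPs are secreted dimers of the TGF-beta superfamily. They bring together type I receptors such as BMPR1A and type II receptors such as BMPR2, and the type I receptor then phosphorylates SMAD1, SMAD5 and SMAD9, which enter the nucleus with SMAD4. The ID genes are among the best known direct targets. They encode helix-loop-helix proteins without a DNA-binding region, which hold E proteins off DNA. SMAD6, SMAD7 and BAMBI are induced by the same signal and restrain it, SMAD6 and SMAD7 inside the cell and BAMBI as a receptor decoy in the membrane. BMP7 has long been studied in prostate development and in bone metastasis of prostate cancer.

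Promoter windows of the 3 ID genes are shown because these are the direct targets set against BMP7 below, and that of BAMBI because it held the most copies of GGCGCC among the members' windows. They are RefSeq windows on GRCh38.p14 from 250 bases before to 50 bases after the start, written 5′ to 3′. Capitals mark the motifs searched on both strands. These were the motif GGCGCC, a GC-rich sequence known to bind SMAD1 and SMAD5, the SMAD-binding element GTCTG, which reads CAGAC on the other strand, the E-box CACGTG and the TATA motif TATAAA.
ID1, chr20:31605039-31605338, plus strand: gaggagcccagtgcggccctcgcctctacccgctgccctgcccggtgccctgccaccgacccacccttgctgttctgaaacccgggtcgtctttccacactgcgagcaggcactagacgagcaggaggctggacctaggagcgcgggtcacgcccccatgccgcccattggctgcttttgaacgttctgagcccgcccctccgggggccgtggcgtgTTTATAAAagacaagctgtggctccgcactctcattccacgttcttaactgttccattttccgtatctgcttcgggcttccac
ID2, chr2:8681806-8682105, plus strand: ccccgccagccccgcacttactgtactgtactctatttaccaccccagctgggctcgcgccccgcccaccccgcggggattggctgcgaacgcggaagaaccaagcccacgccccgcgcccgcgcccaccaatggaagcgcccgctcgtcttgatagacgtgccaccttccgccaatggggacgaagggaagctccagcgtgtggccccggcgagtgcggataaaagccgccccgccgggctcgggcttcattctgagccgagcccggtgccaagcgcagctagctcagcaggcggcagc
ID3, chr1:23559452-23559751, minus strand: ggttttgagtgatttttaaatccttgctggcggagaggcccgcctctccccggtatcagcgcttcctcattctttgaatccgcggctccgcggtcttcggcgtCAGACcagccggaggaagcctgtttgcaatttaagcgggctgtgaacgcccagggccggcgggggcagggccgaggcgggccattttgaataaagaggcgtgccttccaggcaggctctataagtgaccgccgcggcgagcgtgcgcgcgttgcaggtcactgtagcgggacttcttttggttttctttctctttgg
BAMBI, chr10:28677271-28677570, plus strand: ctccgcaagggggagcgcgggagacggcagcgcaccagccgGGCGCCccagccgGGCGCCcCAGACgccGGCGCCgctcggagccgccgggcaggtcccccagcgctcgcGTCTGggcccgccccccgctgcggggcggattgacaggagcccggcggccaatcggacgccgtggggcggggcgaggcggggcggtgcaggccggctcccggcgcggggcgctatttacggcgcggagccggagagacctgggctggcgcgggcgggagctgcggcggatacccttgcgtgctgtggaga
Of the 10 members 9 had a window in the reference table, with 13 windows in all. BAMBI held 3 copies of GGCGCC and 2 of GTCTG, BMPR2 held 1 and 4, and 1 of the 3 BMP4 windows held GGCGCC, in 2 copies. None of the 3 ID windows held GGCGCC, and ID3 alone of them held GTCTG, in 1 copy. ID1 held TATAAA, on both strands of 1 overlapping stretch, and ID2 held none of the 4 motifs. Among all 35116 RefSeq windows of this length, 19.2% held GGCGCC, 45.3% GTCTG, 7.26% CACGTG and 11.5% TATAAA. Such matches are letters in a window, not sites shown to be bound. Sequence outside the windows was not searched, so a motif absent from a window may still lie further from the start.

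The ligand gene BMP7 (ENSG00000101144.13, chromosome 20, 57168748 to 57266629, minus strand, GRCh38) had by far the largest difference among the members. It had 106, 122 and 107 reads in knockout libraries 1 to 3, against 10, 7 and 8 reads in vector libraries 1 to 3. Scaled to library size this was 5.00, 7.68 and 5.53 CPM in the knockout libraries and 0.512, 0.392 and 0.440 CPM in the vector libraries. All 3 knockout libraries lay above all 3 vector libraries, including knockout library 2, which was the highest. The means were 6.07 ± 1.41 CPM in knockout libraries and 0.448 ± 0.0603 CPM in vector libraries (SD, n = 3 each), a ratio of 13.6. The log2 fold change (knockout over vector) was 3.74 ± 0.30 (SE), and 15 of the 15783 genes tested had a larger one. Without knockout library 2 it was 3.53 ± 0.31, with 19 of 16339 genes above it. BMP7 passed the filter on low counts through its knockout libraries, and the vector level rests on 25 reads in all. Its antisense neighbour BMP7-AS1, which overlaps it on the plus strand, had 0 reads in all 6 libraries.

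BMP4 (ENSG00000125378.16, chromosome 14), the other ligand gene, was barely detected. It had 15, 2 and 1 reads in the knockout libraries, against 4, 1 and 0 reads in the vector libraries. The groups overlapped, and 15 of the 18 reads of the knockout group came from knockout library 1. BMP4 did not pass the filter on low counts, so it has no fitted fold change and the remaining 9 members were tested.

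**Figure D1:**
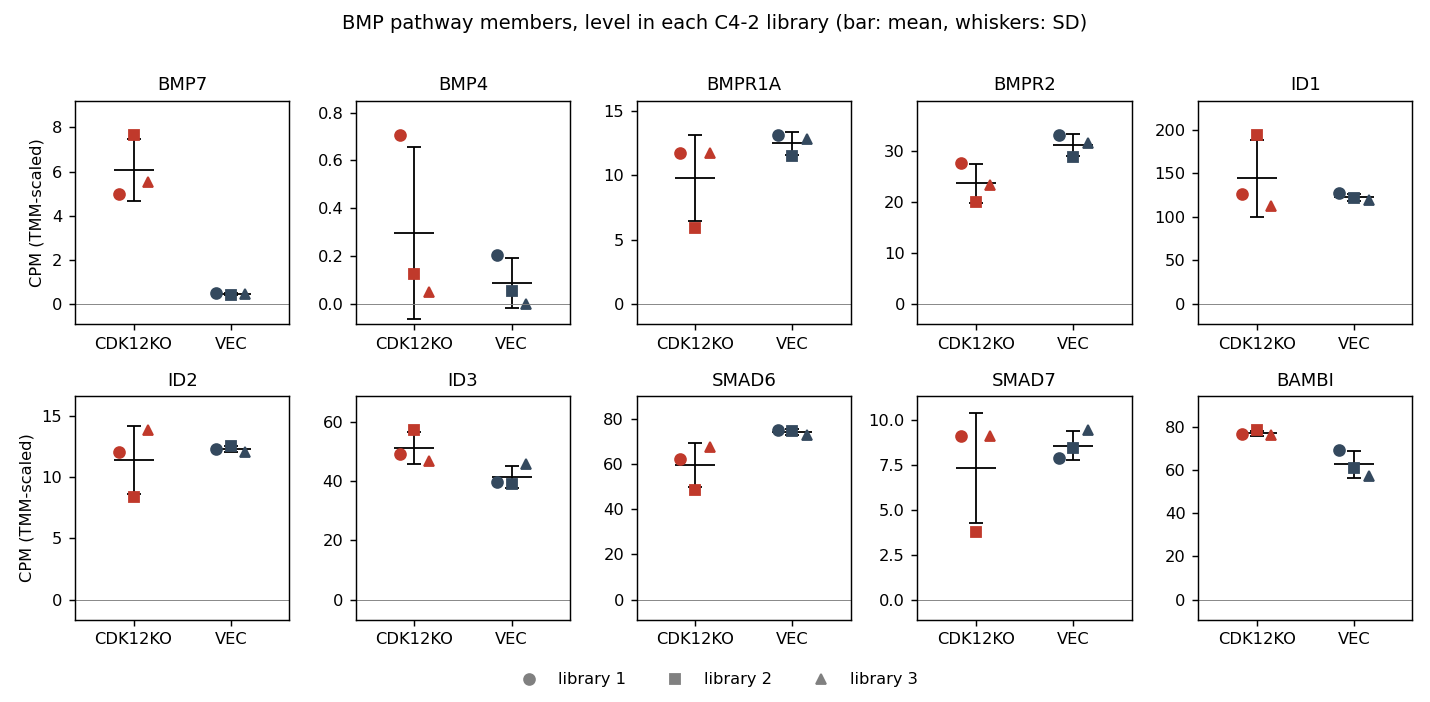
CPM of each member (y axis, scaled to library size) in the 3 knockout libraries (left, red) and the 3 vector libraries (right, dark), with the mean as a bar and the SD as whiskers, and a marker shape for each library number. BMP7 lies at 5.00 to 7.68 CPM in knockout libraries and 0.392 to 0.512 CPM in vector libraries, while knockout library 2 (square) is far from its group in BMPR1A, ID1, ID2 and SMAD7.

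The type I receptor gene BMPR1A (chromosome 10) had 11.7, 5.91 and 11.7 CPM in the knockout libraries and 13.2, 11.5 and 12.8 CPM in the vector libraries. Only knockout library 2 lay clearly below the vector range. Its log2 fold change was -0.35 ± 0.27 with all libraries and -0.10 ± 0.14 without that library, where it was smaller than its SE. The type II receptor gene BMPR2 (chromosome 2) had 27.6, 19.9 and 23.4 CPM in the knockout libraries and 33.3, 28.8 and 31.6 CPM in the vector libraries. Here the groups did not overlap, and the log2 fold change was -0.40 ± 0.16 with all libraries and -0.30 ± 0.11 without knockout library 2. BMPR2 is the longest member in exonic sequence, with 11900 bases.

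ID1 (chromosome 20, 31605283 to 31606515), whose window is shown above, was the most abundant member. It had 126, 194 and 113 CPM in the knockout libraries, against 127, 122 and 119 CPM in the vector libraries. Knockout library 2 was above all other libraries, knockout library 3 below all of them and knockout library 1 inside the vector range. The log2 fold change was 0.23 ± 0.21 with all libraries and -0.05 ± 0.07 without knockout library 2. With all libraries and no scaling factors it was 0.0002, which is 0.18 above the median of all genes.

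ID2 (chromosome 2) had 12.0, 8.37 and 13.8 CPM in the knockout libraries and 12.3, 12.5 and 12.0 CPM in the vector libraries. Its groups overlapped, with knockout library 2 lowest and knockout library 3 highest, and the log2 fold change was -0.10 ± 0.20 with all libraries and 0.07 ± 0.14 without knockout library 2. The overlapping ID2-AS1 runs on the other strand, and reads in the overlap, which can come from either gene, were set aside as ambiguous. Counting by strand gave ID2 8.24%, 0.752% and 5.24% more reads in knockout libraries 1 to 3. In vector libraries 1 to 3 it gave 12.5%, 6.28% and 11.9% more. How many of these extra reads came from ID2 is not known, and their part in the ID2 fold change was not tested. ID3 (chromosome 1) had 49.4, 57.3 and 46.8 CPM in the knockout libraries and 39.7, 39.1 and 45.7 CPM in the vector libraries. Its groups did not overlap, although knockout library 3 and vector library 3 lay close together. The log2 fold change was 0.30 ± 0.13 with all libraries and 0.21 ± 0.09 without knockout library 2. Of the 3 ID genes, ID3 alone had groups that did not overlap, as 39.4% of all tested genes did.

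Among the feedback inhibitors, SMAD6 (chromosome 15) had 62.4, 48.5 and 67.4 CPM in the knockout libraries and 74.9, 74.7 and 72.7 CPM in the vector libraries. All knockout libraries were below all vector libraries, with a log2 fold change of -0.32 ± 0.14 with all libraries and -0.20 ± 0.08 without knockout library 2. SMAD7 (chromosome 18) had 9.11, 3.77 and 9.15 CPM in the knockout libraries and 7.88, 8.45 and 9.45 CPM in the vector libraries. Knockout libraries 1 and 3 sat inside the vector range and knockout library 2 was less than any vector library. The SMAD7 estimate was -0.22 ± 0.33 with all libraries and 0.08 ± 0.16 without knockout library 2. BAMBI (chromosome 10), the receptor decoy, had 76.6, 78.3 and 76.1 CPM in the knockout libraries and 69.1, 61.0 and 57.2 CPM in the vector libraries. It did not overlap between groups, its 3 knockout libraries lay close together, and its log2 fold change was nearly the same with all libraries, 0.30 ± 0.12, as without knockout library 2, 0.28 ± 0.08.

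Across the 9 members tested, 5 had groups that did not overlap: BMP7, ID3 and BAMBI were higher and BMPR2 and SMAD6 lower in knockout libraries. Of all genes tested 39.4% had groups that did not overlap, with 20.4% higher and 19.0% lower in knockout libraries. The same 5 members did not overlap when knockout library 2 was left out, beside 47.2% of all genes, 24.5% higher and 22.8% lower. With all libraries 1 member, BMP7, was below 0.05 in the quasi-likelihood test of edgeR after adjustment over all genes, as were 0.596% of genes, 0.418% higher and 0.177% lower. Settings under which BMP7 was no longer below it were a block for library number and leaving out any 1 vector library. Without knockout library 2 there were 2 members, BMP7 and BAMBI, beside 19.1% of all genes, 10.2% higher and 8.88% lower. BAMBI was no longer below it when knockout library 1 or 3 or vector library 3 was left out as well. Since the members were chosen from this contrast, nothing is read from these counts. The median log2 fold change of the 9 members was -0.10 with all libraries and 0.07 without knockout library 2, beside 0.00 and -0.01 over all genes tested.

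**Figure D2:**
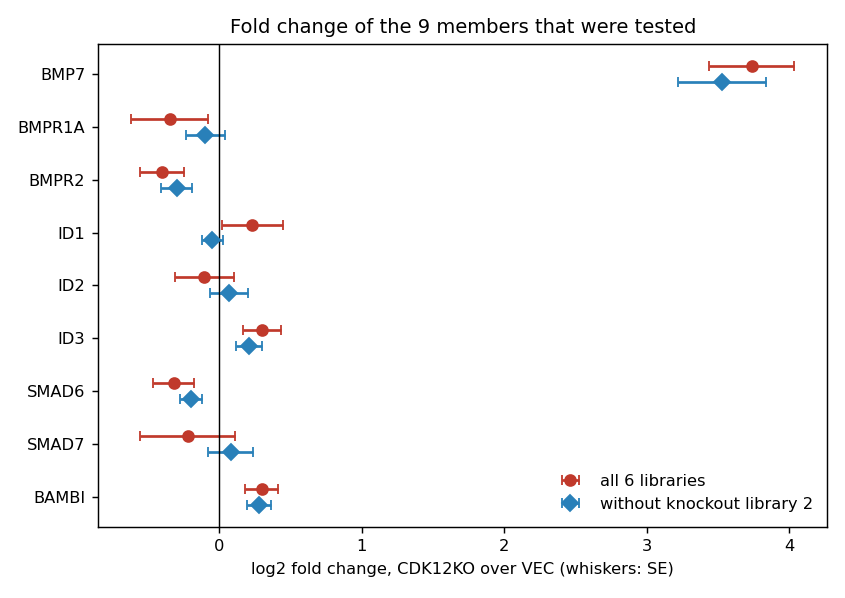
Log2 fold change of the 9 tested members, knockout over vector (x axis), with SE as whiskers, from the fit on all 6 libraries (circles) and the fit without knockout library 2 (diamonds). BMP7 lies at 3.74 and 3.53, and the other 8 members lie between -0.40 and 0.30.

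Levels were compared between genes only per kilobase of exonic sequence. In knockout libraries the order was ID1 (117 ± 35.6 CPM per kilobase), BAMBI (33.3 ± 0.499), ID3 (28.5 ± 3.02), SMAD6 (6.94 ± 1.14), ID2 (5.17 ± 1.26), BMPR2 (1.99 ± 0.323), SMAD7 (1.46 ± 0.615), BMP7 (1.12 ± 0.261), BMPR1A (0.858 ± 0.294) and BMP4 (0.0958 ± 0.117). In vector libraries it was ID1 (99.4 ± 3.27 CPM per kilobase), BAMBI (27.0 ± 2.62), ID3 (23.1 ± 2.04), SMAD6 (8.66 ± 0.141), ID2 (5.56 ± 0.103), BMPR2 (2.62 ± 0.188), SMAD7 (1.71 ± 0.158), BMPR1A (1.09 ± 0.0774), BMP7 (0.0826 ± 0.0111) and BMP4 (0.0282 ± 0.0343; SD, n = 3 throughout). The higher mean of BMP7 than of BMPR1A in knockout libraries came from knockout library 2. Without that library, a check added after the data were seen, BMP7 averaged 0.972 and BMPR1A 1.03 CPM per kilobase, the order of the vector libraries. In the knockout libraries SMAD6 and ID2, BMPR2 and SMAD7, SMAD7 and BMP7, and BMP7 and BMPR1A had overlapping intervals of 1 SD around the mean. In vector libraries BAMBI and ID3 alone among neighbours had such overlapping intervals.

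Knockout library 2 moved the members in different directions, and gene length moved with this. Its log2 CPM lay 0.67 above the vector mean for ID1 and 0.47 for ID3, the 2 shortest members (1233 and 1797 exonic bases), and at -1.06 for BMPR1A (11412 bases), -0.64 for BMPR2 and -0.61 for SMAD6 (8563 bases). ID2 at -0.55 (2205 bases) and SMAD7 at -1.16 (5033 bases) did not follow length alone. BAMBI, at 0.33 with 2314 bases, was among the short members that were higher. For the 8 members other than BMP7 and BMP4, knockout library 1 lay between -0.25 and 0.30 and knockout library 3 between -0.41 and 0.29. Across the 15250 tested genes with a length, Spearman's rho between a library's shift and exonic length was -0.33 in knockout library 2, -0.19 in knockout library 1, -0.24 in knockout library 3 and, for vector libraries set against the other 2, 0.15, -0.25 and 0.13. Among the 9 tested members rho was -0.57, -0.48 and -0.40 in knockout libraries 2, 1 and 3. In vector libraries 1 to 3, each set against the other 2, it was 0.38, -0.47 and 0.27. A negative rho was thus not particular to knockout library 2. Genes of a library share it and its depth, and the part of length in the members' values was not tested.

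**Figure D3:**
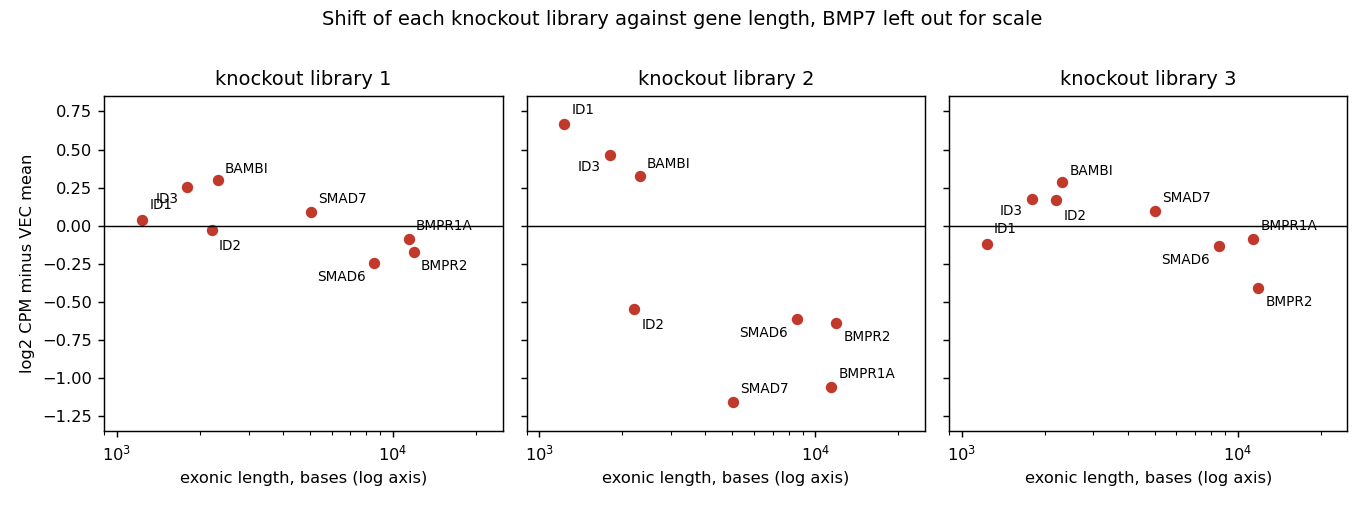
Log2 CPM of each knockout library minus the vector mean (y axis) against exonic length in bases (log x axis) for 8 members, with BMP7, at 3.21 to 3.82, left out for scale. In knockout library 2 the points spread from -1.16 (SMAD7) to 0.67 (ID1), against -0.25 to 0.30 in knockout library 1 and -0.41 to 0.29 in knockout library 3.

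Among the genes searched, those nearest to BMP7 in their pattern over the 6 libraries were IGFBP3, BRINP1 and UGT2B15. IGFBP3 encodes a binding protein of insulin-like growth factors, BRINP1 is a neural gene and UGT2B15 a glucuronosyltransferase gene. Likeness was the root mean square difference in log2 CPM after each gene was centred on its mean, among 9763 protein-coding genes whose mean reached 5 CPM. It was 0.44 for IGFBP3, 0.59 for BRINP1 and 0.62 for UGT2B15, whose reads may be split with near copies of the gene. IGFBP3 had 63.7, 68.5 and 61.8 CPM in the knockout libraries and 4.20, 2.80 and 2.91 CPM in the vector libraries. Like BMP7, it was highest in knockout library 2, while BRINP1 and UGT2B15 were lowest there among the knockout libraries. The likeness of BRINP1 and UGT2B15 thus lay in the difference between groups, by which BMP7 was chosen. The mean of BMP7 itself was under 5 CPM, so genes at its own level were not searched. The nearest genes to ID1 were B4GALT7 (0.03), CORO1B (0.05) and HEBP2 (0.05), each of which was also highest in knockout library 2. CORO1B, which encodes a coronin of the actin skeleton, had 290, 460 and 281 CPM in the knockout libraries, against 290, 292 and 273 CPM in the vector libraries.

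The rest of the pathway was read from lists by role, 119 genes in all, of which 71 passed the filter on low counts with all libraries and 73 without knockout library 2. With all libraries 2 of 71 passed the edgeR test over all genes (2.82%), beside 0.596% of all genes, 0.418% higher and 0.177% lower. GDF15 rose and HES1 fell. An unadjusted edgeR p under 0.05 was found for 19 of the 71, and for 3420 of all 15783 genes tested. Without knockout library 2, 21 of 73 passed (28.8%), 8 higher and 13 lower in knockout libraries, beside 19.1% of all genes, 10.2% higher and 8.88% lower. Among the 71 genes that passed the filter in both fits, which leave out INHBE, these were 20, with 7 higher and 13 lower. The lists were written with earlier results of these data known, so nothing is read from these shares or from the counts by role below. The median log2 fold change of the pathway genes was -0.15 with all libraries and -0.11 without knockout library 2.

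**Figure D4:**
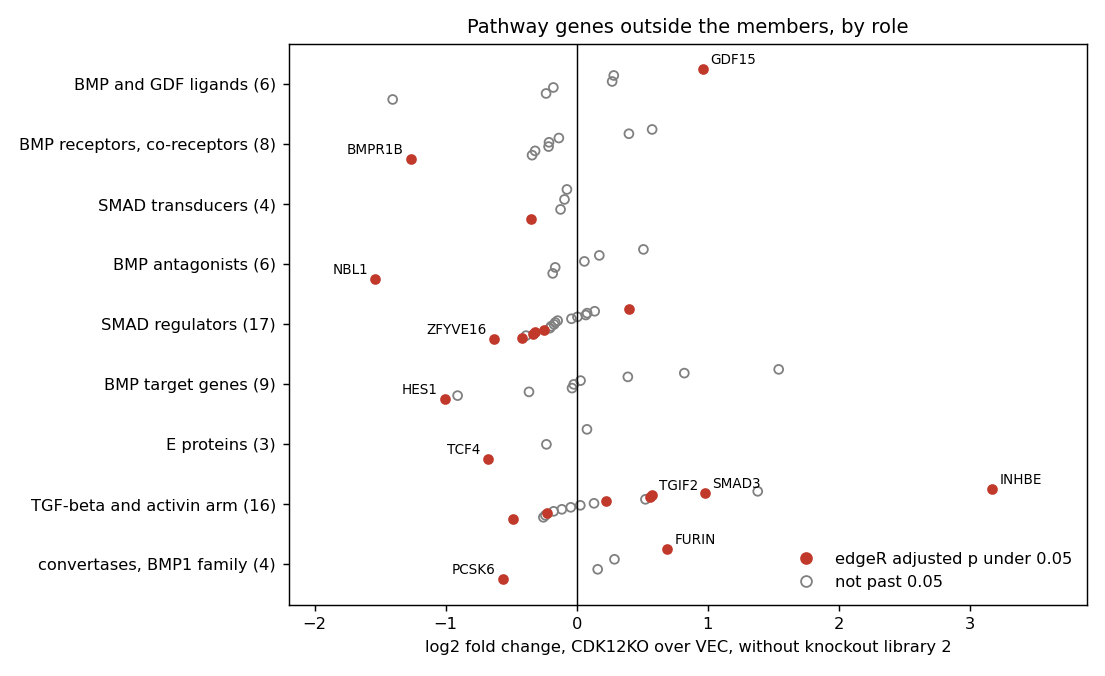
Log2 fold change (x axis, knockout over vector, without knockout library 2) of the 73 tested pathway genes outside the members, by role with the number tested in brackets. Filled points passed an edgeR adjusted p of 0.05, 8 of them to the right of 0 and 13 to the left, with INHBE at 3.17 and NBL1 at -1.54 at the ends.

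Of 20 other BMP and GDF ligand genes 6 were tested, and GDF15 alone passed. GDF15 is a stress-induced cytokine and a distant member of the family, known to signal through GFRAL and not through BMP receptors. It had 358, 487 and 339 CPM in the knockout libraries and 184, 177 and 174 CPM in the vector libraries, with no overlap. The log2 fold change was 1.15 ± 0.17 (edgeR adjusted p = 0.0468, 3.80e-09 to 0.316 over alternatives). Settings that ended the call were RLE factors, a block for library number and any left-out library other than knockout library 2. In the fit without knockout library 2 it was 0.96 ± 0.06 (edgeR adjusted p = 3.80e-09, up to 2.39e-07 over alternatives).

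Of 10 other receptor and co-receptor genes 8 were tested, and without knockout library 2 BMPR1B fell and 7 did not pass. BMPR1B, the sister type I receptor of BMPR1A, had 2.97, 2.96 and 4.03 CPM in the knockout libraries and 7.78, 8.01 and 9.34 CPM in the vector libraries. The groups were far apart, and knockout library 2 was like the others. With all libraries BMPR1B stood at log2 -1.33 ± 0.21 (edgeR adjusted p = 0.0510). It did pass with a filter of at least 1 CPM in at least 3 libraries (edgeR adjusted p = 0.0480) and in DESeq2 (DESeq2 adjusted p = 7.72e-06). Leaving out knockout library 2, it fell by 1.27 ± 0.20 (edgeR adjusted p = 0.000211, up to 0.0110 over alternatives). NEO1, a co-receptor partner and the highest of this list per kilobase in the vector line, had 27.5 ± 4.69 CPM in knockout libraries and 34.9 ± 3.02 CPM in vector libraries (SD, n = 3 each), and its log2 fold change was -0.34 ± 0.16 with all libraries and -0.21 ± 0.10 without knockout library 2.

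All 4 SMAD transducer genes were tested, and SMAD5 fell in the fit without knockout library 2 (log2 -0.35 ± 0.09, edgeR adjusted p = 0.0103, and 0.000835 to 0.186 over alternatives), and the other 3 did not pass. That call ended when knockout library 1 or 3 was also left out, and with all libraries SMAD5 stood at log2 -0.44 ± 0.14 (edgeR adjusted p = 0.188). SMAD5 had 40.1, 30.7 and 37.3 CPM in the knockout libraries and 49.5, 46.4 and 51.0 CPM in the vector libraries, with no overlap.

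Of 18 genes of secreted BMP antagonists 6 were tested, and the classical antagonist genes NOG, CHRD and GREM1 were not among them. NBL1, an antagonist of the DAN family, had 3.35, 9.31 and 0.982 CPM in the knockout libraries and 6.14, 8.06 and 4.89 CPM in the vector libraries. Knockout library 2 was the highest of all 6, while the other knockout libraries were the lowest. NBL1 fell without that library (log2 -1.54 ± 0.35, edgeR adjusted p = 0.00602), a call that ended in DESeq2 and without knockout library 3 (adjusted p up to 0.0864). With all libraries its estimate was -0.50 ± 0.67 (edgeR adjusted p = 0.638). TWSG1, the most abundant of the list per kilobase in the vector line, had 20.7 ± 2.15 CPM in knockout libraries and 24.4 ± 2.23 CPM in vector libraries, and its log2 fold change was -0.24 ± 0.14 with all libraries and -0.16 ± 0.11 without knockout library 2.

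All 17 intracellular regulators of SMAD signalling were tested, and without knockout library 2 1 rose, 5 fell and 11 did not pass. Of all genes 10.2% were higher and 8.88% lower in that fit. FKBP1A, which encodes the immunophilin that holds type I receptors inactive, rose (log2 0.40 ± 0.06, edgeR adjusted p = 0.000247, up to 0.0131 over alternatives). It had 200, 395 and 202 CPM in the knockout libraries and 158, 151 and 146 CPM in the vector libraries, highest in knockout library 2, and with all libraries it stood at log2 0.81 ± 0.28 (edgeR adjusted p = 0.208). The antiproliferative gene TOB1 (log2 -0.42 ± 0.09, edgeR adjusted p = 0.00294), the ubiquitin ligase gene WWP2 (-0.32 ± 0.07, edgeR adjusted p = 0.00426) and the endosomal SMAD anchor gene ZFYVE16 (-0.63 ± 0.16, edgeR adjusted p = 0.0102) fell. These 3 calls ended when knockout library 3 was also left out, that of WWP2 also without knockout library 1 and that of ZFYVE16 without vector library 3 (adjusted p up to 0.0608, 0.0888 and 0.140). With all libraries none of the 3 passed in edgeR: TOB1 stood at log2 -0.71 ± 0.31 (edgeR adjusted p = 0.237), WWP2 at -0.35 ± 0.11 (edgeR adjusted p = 0.182) and ZFYVE16 at -0.84 ± 0.28 (edgeR adjusted p = 0.204). STUB1, a ubiquitin ligase gene and the highest of the list per kilobase in the vector line, did not pass.

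Of 16 other genes known to be induced by BMPs 9 were tested, and in both fits HES1 fell while 8 did not pass. HES1, a repressor best known as a Notch target, had 70.0, 76.7 and 82.4 CPM in the knockout libraries and 147, 151 and 158 CPM in the vector libraries. The groups were far apart and knockout library 2 lay between the other knockout libraries. The log2 fold change was -0.99 ± 0.12 with all libraries (edgeR adjusted p = 0.0252, 8.00e-11 to 0.212 over alternatives). The call ended with no scaling factors, with a block for library number and with any left-out library other than knockout library 2. Leaving out knockout library 2 gave -1.003 ± 0.08 (edgeR adjusted p = 4.76e-08, up to 4.01e-06 over alternatives).

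Of the 3 genes of E proteins, the partners that ID proteins hold off DNA, TCF4 fell without knockout library 2 (log2 -0.68 ± 0.23, edgeR adjusted p = 0.0417, up to 0.435 over alternatives). Its call ended in DESeq2 and without knockout library 3 or vector library 3, and with all libraries it stood at log2 -0.50 ± 0.26 (edgeR adjusted p = 0.279). TCF4 had 4.63, 5.35 and 2.95 CPM in the knockout libraries and 5.27, 6.16 and 6.81 CPM in the vector libraries, and the groups overlapped through knockout library 2. TCF3, the most abundant of them per kilobase in the vector line, had 114 ± 3.24 CPM in knockout libraries and 110 ± 9.01 CPM in vector libraries (SD, n = 3 each). Its log2 fold change was 0.06 ± 0.12 with all libraries, which turned to -0.11 with no scaling factors, and 0.08 ± 0.07 without knockout library 2.

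Of 6 genes of precursor convertases and BMP1-like proteases 4 were tested, and without knockout library 2 1 rose and 1 fell. FURIN, the protease known to cleave BMP precursors to their mature form, had 56.0, 53.2 and 55.1 CPM in the knockout libraries and 33.5, 36.8 and 32.5 CPM in the vector libraries. All knockout libraries, knockout library 2 included, lay above the vector range. With all libraries FURIN stood at log2 0.68 ± 0.11 (edgeR adjusted p = 0.0540), but it did pass in DESeq2. Leaving out knockout library 2, it rose by 0.69 ± 0.09 (edgeR adjusted p = 2.20e-05, up to 0.000989 over alternatives). PCSK6, a related convertase gene, fell without knockout library 2 (log2 -0.56 ± 0.14, edgeR adjusted p = 0.00734), and the call ended when knockout library 1 was also left out (adjusted p = 0.101). With all libraries PCSK6 stood at log2 -0.89 ± 0.37 (edgeR adjusted p = 0.226).

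In the TGF-beta and activin arm, which signals through SMAD2 and SMAD3, 16 of 25 genes were tested without knockout library 2. Of these 5 passed as higher, INHBE among them, 2 fell and 9 did not pass, beside 10.2% of all genes higher and 8.88% lower. INHBE, an activin subunit gene, had 1.04, 0.566 and 2.02 CPM in the knockout libraries and 0.102, 0.224 and 0.165 CPM in the vector libraries. This was 22, 9 and 39 reads in the knockout libraries, against 2, 4 and 3 reads in the vector libraries. INHBE passed the filter on low counts only through its knockout libraries and only without knockout library 2, so no p is given for it and its call, which ended when knockout library 3 was also left out, is read as no more than these counts. The corepressor gene TGIF2 (log2 0.57 ± 0.12, edgeR adjusted p = 0.00314) and the transducer gene SMAD3 (0.98 ± 0.25, edgeR adjusted p = 0.00857) rose as well, and both calls ended without knockout library 3. With all libraries TGIF2 stood at log2 0.74 ± 0.18 (edgeR adjusted p = 0.139, DESeq2 adjusted p = 0.0172) and SMAD3 at 0.81 ± 0.32 (edgeR adjusted p = 0.220). PMEPA1, a feedback inhibitor of TGF-beta signalling also known as an androgen-regulated gene, fell (log2 -0.23 ± 0.06, edgeR adjusted p = 0.0176, up to 0.359 over alternatives), a call that ended without knockout library 1 or 3 or vector library 1. With all libraries PMEPA1 stood at log2 -0.16 ± 0.13 (edgeR adjusted p = 0.447).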

How the data were processed

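Total RNA from an RNeasy kit went into SMARTer mRNA libraries, per the labels' protocols. The tools FastQC and STAR and the build GRCh38 come from the submitters' processing notes. Tool versions and the annotation are not stated there. Each deposited file holds the authors' raw counts of reads per gene, with 62696 gene rows and 4 summary rows (29.7% to 32.6% of reads), which stayed out of library sizes and tests. The unstranded column was used. The strand columns summed to ratios of 1.02 to 1.04, so reads of a gene and an antisense partner cannot be told apart. At 16617644 to 21590817 reads in genes, counting error is small for most members. It is larger for BMP4 in all libraries and BMP7 in vector libraries, and for SMAD7 (60 reads) and BMPR1A (94 reads) in knockout library 2.

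Counts were fitted over all genes with edgeR 4.0.16 in R 4.3.3 (filterByExpr, TMM, robust quasi-likelihood test, no block, Benjamini-Hochberg adjustment, threshold 0.05), after a test on simulated data. SE is the log2 fold change divided by the square root of F. CPM use TMM-scaled library sizes, and log2 CPM a prior count of 2. No 2 replicates agreed within sampling noise (chi-square per degree of freedom of at least 3.27). Names came from a table by identifier, and coordinates and exonic lengths (exon union) from GENCODE 29 (GRCh38), perhaps not the release used for counting. The members and lists were chosen with earlier results of these data known. Named genes are the members, up to 4 called genes per list by adjusted p without knockout library 2, the gene of each list highest per kilobase in vector libraries, and the 3 nearest patterns to BMP7 and ID1. Alternatives were other scaling factors and filters, DESeq2 1.42.0, limma 3.58.1 (voom), a replicate block and leaving out libraries.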

Additional observations from a re-analysis of the deposited data

How the results depend on the processing

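With all libraries the count of 2 called pathway genes outside the members became 6 in DESeq2 and 5 with no filter on low counts. It became 1 with RLE factors, 1 with no scaling factors and 0 with the replicate block in edgeR. With 1 library left out it ranged from 0 to 21, 21 being the count without knockout library 2. Calls over all genes moved too, from 66 higher and 28 lower to 624 and 356 in DESeq2. They were 253 and 110 with no filter, 67 and 28 with RLE factors, 32 and 7 with no scaling factors and 5 and 0 with the block. Leaving out knockout library 2 gave 1672 and 1451, and leaving out vector library 1 gave 4 and 0. Without knockout library 2 the count of 21 ranged from 7 to 28 when a further library was left out, 7 without knockout library 3 and 13 without knockout library 1. The median log2 fold change of the members ranged from -0.26 to 0.07 with 1 library left out, and from 0.03 to 0.08 where knockout library 2 was already out. BMP7 stayed between 3.44 and 3.86 in every alternative of both fits. With all libraries it did not pass 0.05 in edgeR under the replicate block or without vector library 1, 2 or 3. BMP7 was chosen from this contrast and passed the filter on low counts through its knockout libraries, so no test is read from this. Of 682 values of single genes under alternatives, 676 kept their sign. With no scaling factors the median of all genes moved to -0.18, and TCF3 changed sign to -0.11, which is 0.07 above that median. ID3 and BAMBI then lay 0.28 and 0.30 above it and SMAD6 and BMPR2 at -0.29 and -0.38 relative to it. Same-numbered knockout and vector libraries deviated from their group means with r = 0.14, 0.19 and 0.08, so the numbers were not taken to pair the libraries, and under the replicate block 0 pathway genes passed, with GDF15 at an edgeR adjusted p of 0.107, HES1 at 0.0850 and, among members, BMP7 at 0.0643. BMP7 and INHBE in vector libraries, and BMP4 in all libraries, were limited by depth.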
